A study of Mus musculus with 37 samples.

Results

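The nuclear genes of oxidative phosphorylation were described from a list of translated open reading frames (ORFs) in mouse dendritic cells. An ORF here is a stretch from a start codon to a stop codon that the authors listed from ribosome footprints, and all ORFs under 1 gene name form a family. Members were found by name alone: families whose symbol starts with Nduf and then a, b, c, s or v (complex I), with Uqcr (complex III), with Cox4 to Cox8 (complex IV) or with Atp5 (complex V, the ATP synthase), and Sdha, Sdhb, Sdhc and Sdhd (complex II). This gave 110 ORFs in 85 families, of 22367 ORFs in 10403 families in all. By name, 43 families belonged to complex I, 4 to complex II, 8 to complex III, 13 to complex IV and 17 to complex V.

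The ORFs come from ribosome footprinting, in which the 28 to 34 nt pieces of RNA that a ribosome shields from nuclease are sequenced. The cells were bone marrow-derived dendritic cells of C57BL/6J mice aged 6 to 8 weeks, used on day 9 of culture, and no genetic change is named in the labels. Of 37 libraries, 16 were of cells given 100 ng/mL lipopolysaccharide (LPS, a bacterial cell wall component) and then cycloheximide, which stalls elongating ribosomes. These covered 8 times from 0.5 to 12 h, and 8 mock-treated libraries at the same times and 2 of naive cells were also made with cycloheximide. Without any inhibitor there were 8 LPS libraries and 1 of naive cells. A further library was made with harringtonine and another with lactimidomycin, both of which hold ribosomes at start codons, each from cells at mixed LPS times. The inhibitors were applied at 100 ug/mL (cycloheximide, 1 min), 1 ug/mL (harringtonine, 5 min) and 50 ug/mL (lactimidomycin, 30 min). All libraries feed 1 ORF list with no value per library, so depth per library, levels and effects of LPS were not analysed here, no test between groups was made, and members are set beside all families by counts and medians.

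Oxidative phosphorylation runs in the inner mitochondrial membrane. Complexes I and II pass electrons from NADH and succinate to ubiquinone, complex III passes them on to cytochrome c, and complex IV hands them to oxygen. Complexes I, III and IV pump protons, and the ATP synthase uses the proton gradient to make ATP. Most subunits are encoded in the nucleus, made on cytosolic ribosomes and imported, many of them with an N-terminal targeting sequence that is cut off inside. In dendritic cells, LPS is known to move energy metabolism toward glycolysis.

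The label was checked against gene function. Of the 85 families, 75 are subunits and 10 are not: Ndufaf1 to Ndufaf7 help to assemble complex I, Cox7a2l promotes the joining of complexes into supercomplexes, and Atp5s and Atp5sl are named after the ATP synthase but are not counted among its core subunits. Ndufa4 was counted with complex I by name, although it is now assigned to complex IV. The rule missed Cyc1, the cytochrome c1 subunit of complex III, which was listed with 1 ORF of 325 codons. Of subunits fixed from textbook lists, 35 of 36 of complex I were listed (Ndufa7 was not), as were 4 of 4 of complex II, 9 of 9 of complex III, 11 of 11 of the widely expressed subunits of complex IV and 15 of 15 of complex V. Of 8 complex IV isoforms known from particular tissues, only Cox6b2 and Cox7a1 were listed. None of the 13 subunits encoded in mitochondrial DNA was listed. As to the cells, 10 of 11 dendritic cell markers had a listed ORF (Flt3 did not), as had 5 of 5 macrophage, 5 of 5 neutrophil, 0 of 3 T cell and 1 of 3 B cell markers. The list cannot say in which cells a member was translated, and the part of other cell types in the members' ORFs was not tested.

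The great majority of these families had a single ORF. Only 20 of 85 (23.5%, exact Clopper-Pearson 95% interval 15 to 34) had more than 1, against 56.4% of all families. Of the 110 member ORFs, 85 were the main ORF, taken as the longest of each family. The other 25 fall into 12 other in-frame starts, 6 splice variants with the main start and stop, 4 upstream ORFs, 1 ORF over the main start, 1 in-frame isoform and 1 ORF within the main span. No member had an ORF downstream of the main stop or over it (0 of 85, interval up to 4.25%), against 1.97% and 0.288% of all families. Intervals are over families, except for sequence motifs, where they are over windows, and cover counting error only. Whether a gene has an ORF in the list, how many and at what score may move with how much of its RNA was present, which the list does not give and which was not tested.

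Scores of the main ORFs were high. The score is a whole number without a unit that the authors gave each ORF. It runs from 500 to 991 in the list and serves here only to describe and rank ORFs within it. The median main score was 969 in members (quartiles 935 and 986, range 553 to 991) and 926 in all families (quartiles 800 and 968). A score of at least 900 was held by 74 of 85 members (87.1%, interval 78 to 93.4), against 56.7% of all families. A score under 700 was held by 5 members (5.88%), against 15.2%. They include the longest ORFs listed under Ndufs1 and Cox8a, whose gene was not tested. Among the 75 subunits the share at 900 or more was 90.7%, and among the 10 other matched families it was 6 of 10.

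**Figure D1:**
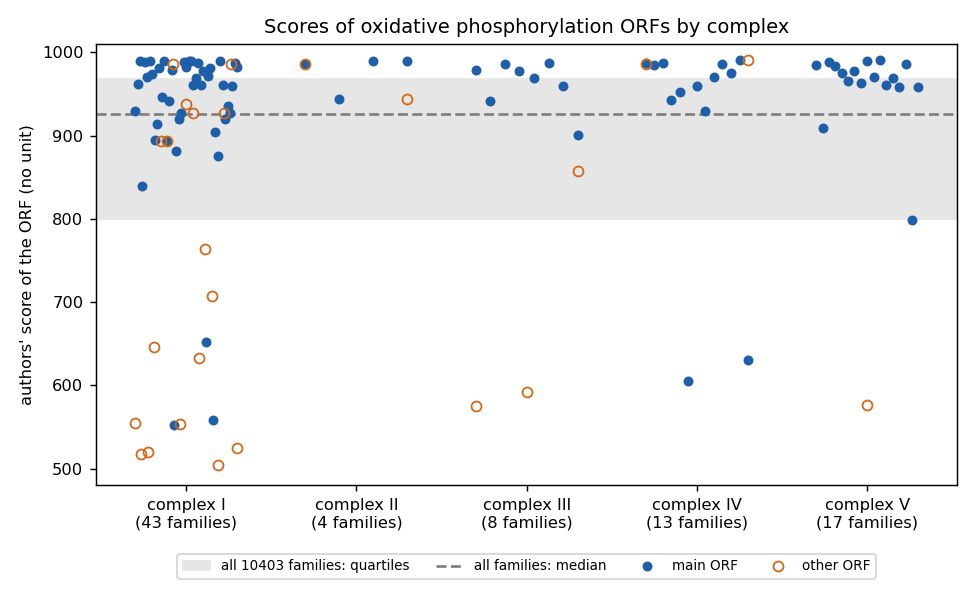
Authors' score (no unit) of each ORF in the 5 complexes, with main ORFs as filled points and other ORFs of the same families as open circles, beside the median of all families (926, dashed) and their quartiles (800 to 968, grey). Main ORFs crowd above 900 in every complex, and those under 700 are Ndufaf4, Ndufs1, Ndufb9, Cox6b2 and Cox8a. For Ndufs1 and Cox8a the gene of this longest ORF was not tested, and a shorter ORF scored 986 and 991, in this order.

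Main ORFs were short and sat on short transcripts. The median main ORF had 146 codons (quartiles 104 and 248) against 435 in all families, and 43 of 85 had fewer than 150 codons (50.6%, against 10.7%). The median listed transcript had 861 bases against 3077, and the median trailer, the part after the stop codon, had 156 bases against 1116. A trailer under 200 bases was found in 52 of 85 members (61.2%, interval 50 to 71.6), against 10.6%. The share was 60% in cytosolic ribosomal proteins, 29.7% in mitochondrial ribosomal proteins and 41.3% in the proteasome. Their median transcripts had 966.5, 1294.5 and 1527 bases, so short trailers and transcripts are not particular to the members. The median number of coding exons was 4 against 8. The range ran from Atp5e, the epsilon subunit of the ATP synthase, with 52 codons (score 975, leader 105 bases), to a listed 1021-codon ORF of Ndufs1 that is described with the upstream ORFs.

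Complex I takes electrons from NADH in a peripheral arm and passes them along iron-sulphur clusters to ubiquinone. Its 43 families had a median main score of 961 and 35 of them scored at least 900 (81.4%). In the module that oxidises NADH, Ndufv1, which binds the flavin and NADH, had 1 ORF of 464 codons with a score of 959. Ndufv2, its iron-sulphur partner, had 1 of 248 codons (score 987), and Ndufv3 had 1 of 104 codons (score 982). In the module that reduces ubiquinone, Ndufs3 (263 codons) scored 876 and Ndufs8 (212 codons) scored 927, each with 1 ORF. Ndufs7, which lies at the ubiquinone site, had 224 codons and a score of 935, with a second start 14 codons inside that scored 525. The 3 highest scores of complex I were those of small accessory subunits, all at 990: Ndufa11 with 143 codons, Ndufab1, the mitochondrial acyl carrier protein, with 156, and Ndufb2 with 105. The 3 lowest were those of Ndufaf4 (553), Ndufs1 (558) and Ndufb9 (652), and in all 3 a shorter ORF of the family scored higher. The Ndufs1 value is that of the 1021-codon ORF, whose gene was not tested, and a 727-codon ORF of the family scored 986.

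Complex II is the succinate dehydrogenase of the citric acid cycle and needs 4 subunits, all of them nuclear. Sdha, the flavoprotein, was listed with 664 codons and a score of 986 and with a splice variant of 663 codons. Sdhb, the iron-sulphur subunit, had 282 codons (score 944) and a variant of 280. The membrane anchors Sdhc (169 codons) and Sdhd (159 codons) had 1 ORF each, both with a score of 990. All 4 scored above 900. No upstream ORF or second start was listed for any of them (0 of 4, interval up to 60.2%), against 20.2% and 23% of all families.

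In complex III all 8 families scored above 900, with a median of 973.5. The highest were Uqcrfs1, the Rieske iron-sulphur protein (274 codons, score 987), Uqcrb (111 codons, score 986) and Uqcr10 (64 codons, score 979). The core proteins Uqcrc1 and Uqcrc2 had 480 and 453 codons and scores of 978 and 969. The lowest were Uqcrq (96 codons, score 901), Uqcr11 (56 codons, score 942) and the hinge protein Uqcrh (89 codons, score 960). Uqcrq and Uqcr11 were also the families of this complex with more than 1 ORF, each with other in-frame starts.

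Complex IV, cytochrome c oxidase, has catalytic subunits made in the mitochondrion and small nuclear subunits around them. Its 13 families had the shortest main ORFs, with a median of 88 codons, and a median score of 970. Cox7c (63 codons) scored 991, and Cox4i1 (169 codons) and Cox5b (129 codons) scored 987 each. The 3 lowest were Cox6b2 (88 codons, score 605), the 271-codon ORF of Cox8a (630) and Cox7a1 (80 codons, score 929). The gene of that 271-codon ORF was not tested, and a 69-codon ORF of Cox8a scored 991. Cox6b2 is known from testis and Cox7a1 from heart and skeletal muscle. Their widely expressed counterparts Cox6b1 (86 codons) and Cox7a2 (83 codons) scored 952 and 970. Scores of isoforms do not give their relative amounts.

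The ATP synthase has a catalytic head, a central and a side stalk, and a membrane rotor. Of its 17 families 16 scored at least 900, with a median of 970, and 16 had a single ORF. The head subunits alpha, Atp5a1 (553 codons, score 985), and beta, Atp5b (529 codons, score 909), differed in their leaders, the part before the start codon, which had 283 bases in Atp5a1 and 20 in Atp5b. The central stalk subunits gamma, Atp5c1 (298 codons), and delta, Atp5d (168 codons), scored 988 and 984. The rotor's c subunit is encoded by 3 genes whose products differ in the targeting sequence: Atp5g1 had 136 codons (score 977, leader 83 bases), Atp5g2 had 146 (score 963, leader 60 bases) and Atp5g3 had 141 (score 990, leader 1291 bases). The highest score was 991, in the stalk subunit Atp5j (108 codons). The lowest were Atp5s (199 codons, score 799) and Atp5b, followed by Atp5l and Atp5sl, both with 958.

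A second in-frame start was the most common further ORF. Such an ORF has the stop of the main ORF and another start in its frame. All 12 of the members begin inside the main ORF, so their proteins would lack the first residues. In all families 3176 of 3403 such ORFs were found to begin inside, and the depths below are over those. It was found in 10 of 85 families (11.8%, interval 5.79 to 20.6), against 23% of all families. With a main ORF under 150 codons it was 5 of 43 (11.6%), against 17.6% of all families of that length. With longer main ORFs it was 5 of 42 (11.9%), against 23.7%. Of the 12 ORFs, 9 scored below their main ORF (75%, against 56.9% of such ORFs in all families). Their median score was 575.5, with a range of 505 to 857, against a median of 669 in all families. The second starts lay close to the first: 10 of 12 were at most 20 codons inside (83.3%, against 46.4%), and the median was 13.5 codons against 23. A short main ORF limits how deep a second start can lie. The members' main ORFs had a median of 146 codons against 435, and families of like length were not compared.

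In 2 families the second start followed the first directly. Atp5k, the e subunit of the ATP synthase, had ORFs of 71 codons (score 969) and 70 codons (score 576). Uqcr11 had ORFs of 56 codons (score 942) and 55 codons (score 592), and on another transcript 1 of 15 codons (score 575). Ndufa10 followed with 355 codons (score 962) and a start 2 codons inside (score 555), and Ndufa5 with 116 codons (score 895) and a start 4 codons inside (score 520). In each of these the longer ORF scored higher by more than 300. Starts 14 codons inside were listed for Ndufb5 (189 codons, scores of 969 and 633), Ndufs7 and Uqcrq (scores of 901 and 857). Uqcrq had the narrowest gap among those with a higher main score, 44. Ndufc2 had the deepest second start on its main transcript, 33 codons inside a 120-codon ORF, with scores of 981 and 505. Ndufb9, a complex I membrane arm subunit, had the order turned: its 179-codon ORF scored 652, the start 9 codons inside scored 764 and the start 18 codons inside scored 707. In Ndufaf4 the 173-codon ORF and the start 13 codons inside scored 553 and 554.

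**Figure D2:**
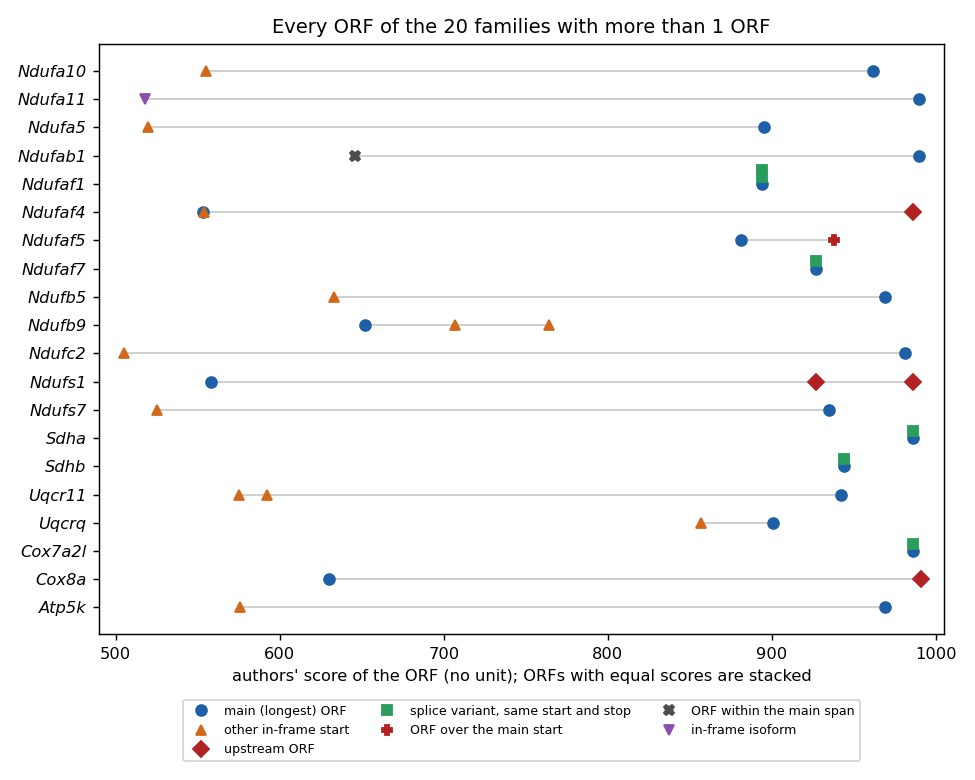
Authors' score (no unit) of every ORF in the 20 families with more than 1 ORF, 1 row per family, with the symbol giving the class of the ORF and equal scores stacked. Triangles (other in-frame starts) lie left of the main ORF in Ndufa10, Ndufa5, Ndufb5, Ndufc2, Ndufs7, Uqcr11, Uqcrq and Atp5k, on it in Ndufaf4 (553 and 554) and right of it in Ndufb9, while splice variants share the score of their main ORF.

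Splice variants that have the start and stop of the main ORF were listed in 5 families (5.88%, interval 1.94 to 13.2), against 17.8% of all families. They were Sdha and Sdhb, Ndufaf1 with 330, 297 and 268 codons (score 894), Ndufaf7, an arginine methyltransferase that acts on complex I, with 436 and 388 codons (score 927), and Cox7a2l with 134 and 111 codons (score 986). The variants of a family had 1 score. Over the members, 7 start codons were shared by several ORFs, and in 5 of them these ORFs had 1 score, as for 2053 of 2749 such start codons in the whole list. The exceptions were Ndufa11 and Ndufs1. In Ndufa11 a 76-codon in-frame isoform that begins at the start of the 143-codon ORF scored 518, against 990 for the longer one. An in-frame isoform was thus found in 1 of 85 families, against 6.76% of all. Ndufab1 was the only family with an ORF inside the main span in another frame or on another transcript, 7 codons long with a score of 646 (1 of 85, against 8.63%).

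Upstream ORFs, which end before the main start or run over it, were rare. They were found in 4 of 85 families (4.71%, interval 1.3 to 11.6), against 20.2% of all families. For the 2 subunits among them, Cox8a and Ndufs1, the class depends on a longest ORF whose gene was not tested. In 3 families the ORF ended before the main start, against 16.4%, and in 1 it ran over it, against 5.3%. Among members with a main ORF under 150 codons the count was 0 of 43, against 17.9% of the 1111 families of that length. Among members with longer main ORFs it was 4 of 42 (9.52%), against 20.5%. With a leader under 100 bases it was 1 of 43 (2.33%), against 4.17%, and with a longer leader 3 of 42 (7.14%), against 26.4%. The members' share was the lower in each of these 4 strata, but with leaders under 100 bases the gap amounts to less than 1 family of 43. If each family's best-scoring ORF is taken as its main ORF, the count is 0 of 85, against 16.4% of all families, because in all 4 families the upstream ORF has the highest score of the family.

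In 2 of the 4 families, both of them assembly factors, the upstream ORF lies close to the main start. Positions are given in the mm9 build, on which the list was made. Ndufaf4, on chromosome 4 (plus strand), had a main ORF at 24825314 to 24829122 with a score of 553. An ORF of 2 codons, at 24825303 to 24825311, stopped 2 bases before that start and scored 986, with 73 bases of leader before it. Ndufaf5, which modifies an arginine of the Ndufs7 protein, lies on chromosome 2 (plus strand) with a main ORF of 293 codons at 139996598 to 140029354 (score 881, leader 216 bases). An ORF of 77 codons at 139996420 to 139996653 (score 938) began 178 bases before the main start and overlapped the main ORF by 56 bases in another frame. Of the 10 matched families that are not subunits, 2 had an upstream ORF (20%, interval 2.52 to 55.6), near the 20.2% of all families. Of the 75 subunits 2 had (2.67%, interval 0.325 to 9.3).

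In the 2 subunit families, Cox8a and Ndufs1, the ORF classed as upstream is itself long or high-scoring. The longest ORF lies far behind it on the same listed transcript, and the class rests on taking that ORF as the main one. Cox8a, on chromosome 19 (minus strand), had an ORF of 69 codons at 7289879 to 7292002 with a score of 991 and a leader of 110 bases. It stopped 621 transcript bases before the 271-codon ORF at 7273532 to 7280749 (score 630). Ndufs1, the largest iron-sulphur subunit of complex I, lies on chromosome 1 (minus strand). Its ORF of 727 codons in 18 coding exons, at 63190405 to 63217483, scored 986 and stopped 29370 transcript bases before the 1021-codon ORF at 63104557 to 63140076 (score 558). A 35-codon ORF from the same start on another transcript scored 927. In the RefSeq gene order the next protein-coding gene on the 3′ side is Otub1 for Cox8a and Ino80d for Ndufs1, and 0 ORFs were listed under either name. Which gene the 271-codon and 1021-codon ORFs belong to was not tested.

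**Figure D3:**
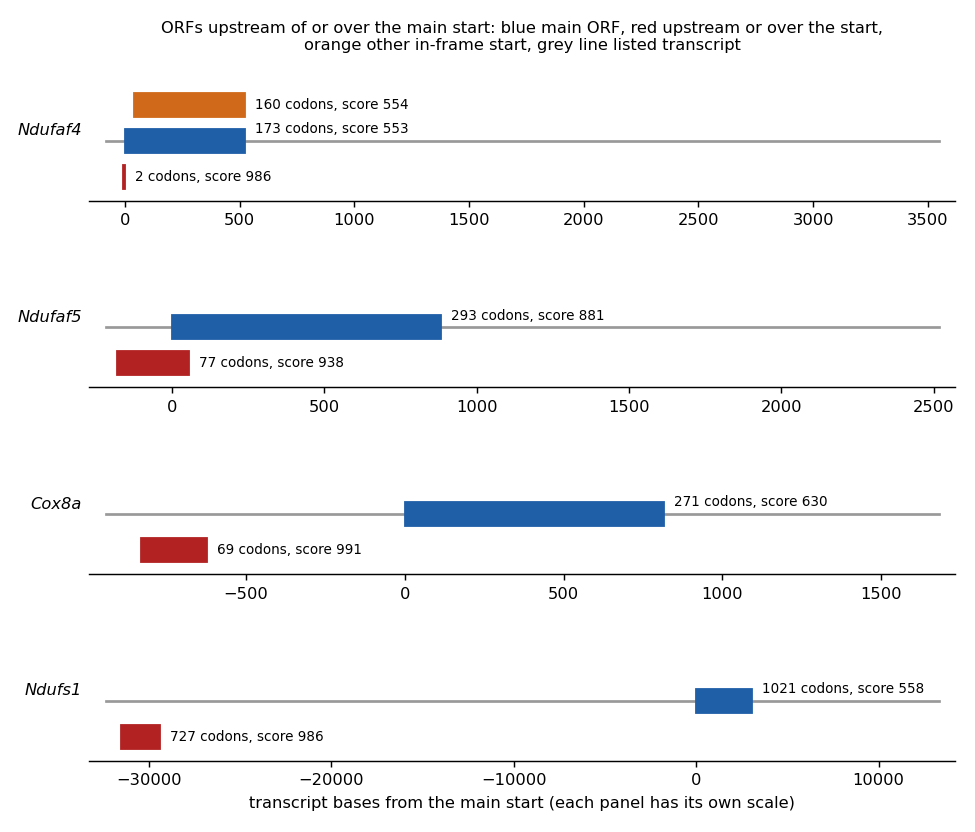
ORFs of the 4 families with an upstream ORF along 1 listed transcript each, in transcript bases from the main start, with each panel on its own scale. The upstream ORF of Ndufaf4 begins 11 bases before the main start. That of Ndufaf5 begins 178 bases before it and runs over it by 56 bases. Those of Cox8a and Ndufs1 begin 831 and 31554 bases before it, and the 35-codon ORF of Ndufs1 is not drawn.

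Leaders were short. The median leader of the main ORF had 99 bases (quartiles 52 and 184), against 186 (quartiles 92 and 365) in all families. A leader under 100 bases was found in 43 of 85 members (50.6%), against 27.7%, and 1 under 50 bases in 20 (23.5%), against 12.2%. By complex the median was 78 bases in complex I, 46 in II, 100.5 in III, 111 in IV and 137 in V. In complex I 15 of 43 had fewer than 50 bases (34.9%, interval 21 to 50.9), while in complex III it was 0 of 8 (interval up to 36.9%). These intervals overlap, and among mitochondrial ribosomal proteins the share was 36.5%. The shortest leader was that of Ndufb4, an accessory subunit of the membrane arm, with 9 bases. At the other end 3 leaders had 1000 bases or more (3.53%, against 6.25%): Ndufs1 with 32369 before its 1021-codon ORF, Ndufa13 with 1826 (score 988) and Atp5g3 with 1291.

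**Figure D4:**
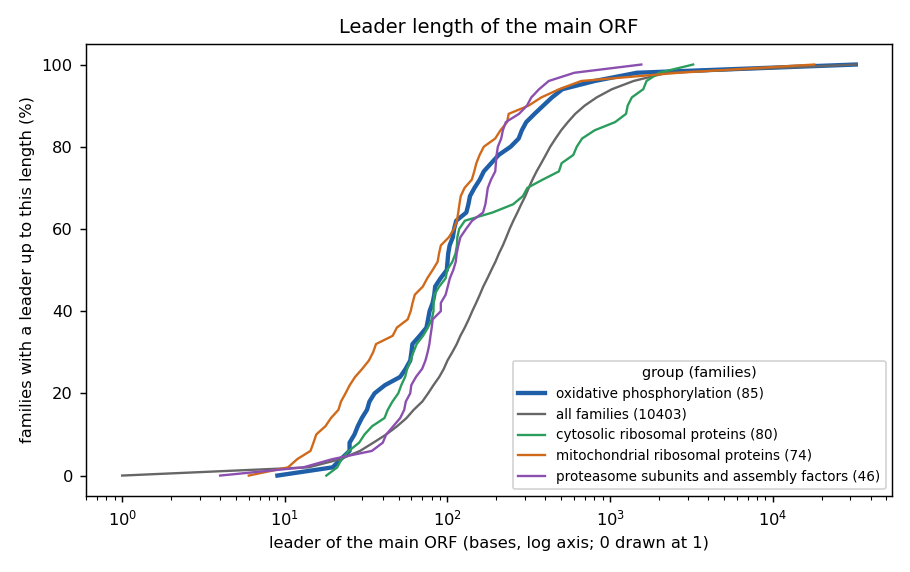
Share of families (%) whose main ORF has a leader up to a given length (bases, log axis), for the 85 oxidative phosphorylation families, all families and 3 other gene groups. The curve of the members has a median of 99 bases against 186 in all families, 99.5 in cytosolic ribosomal proteins, 81 in mitochondrial ribosomal proteins and 108.5 in the proteasome, and above the median the cytosolic ribosomal proteins have longer leaders, with 15% at 1000 bases or more against 3.53% of the members.

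Sequences around the start codon are shown because they can be read for the short leaders. The RefSeq promoter table (GRCm38.p6) gives 250 bases before to 50 bases after each gene start, so a start codon is visible where the leader has at most 44 bases. Of 14 members with such a leader and a window, 10 had an ATG at the listed position (71.4%), against 537 of 918 families (58.5%). In a check over 776 families, an ATG stood at the listed position in 61.2% and at each of the positions 1 to 6 bases off in at most 1.8%. Capitals mark the start codons.

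Atp5b, chr10:128083315-128083344 (+): ccggattccgccATGttgagtcttgtgggg
Ndufa3, chr7:3617386-3617415 (+): gccaagaacaagATGgccgggagtaagtac
Ndufa9, chr6:126849095-126849124 (-): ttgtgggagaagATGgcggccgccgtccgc
Ndufa10, chr1:92473720-92473749 (-): gacggcgaagtcATGgccTTGaggttgctg
Ndufaf7, chr17:78937153-78937182 (+): cggggtgtaggaATGaatgctttggtgaga
Ndufb4, chr16:37654339-37654368 (-): ggagtcaagATGtcgggttccaagtataag
Ndufb5, chr3:32737070-32737099 (+): gccggtgtagccATGgcggccatgagcctg
Ndufc1, chr3:51408913-51408942 (-): ctgcggaacaagATGgcgccgtccgtagtg
Ndufs6, chr13:73328433-73328458 (-): gtcaccggcaagATGgcggcggtgct
Sdha, chr13:74350191-74350220 (-): gggaaggcagacATGgccggggttggcgca

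All 10 had a purine 3 bases before the ATG, against 92.6% of the 537 families, and 7 had a G directly after it, against 76.7%. These are the positions known to matter most for start codon recognition by the scanning ribosome. The triplet AAG stood directly before the ATG in 5 of 10 (Ndufa3, Ndufa9, Ndufb4, Ndufc1 and Ndufs6), against 19%. The longer run AAGATGGCG was found at the start in 3 of 10 (Ndufa9, Ndufc1 and Ndufs6), against 13.8%. None of the 10 had an earlier ATG in the leader, which is near the share over all families, where 91.6% had none. In Ndufa10 the second in-frame start, 2 codons inside, is a TTG. Over all families 17 in-frame second starts could be read in this way, and 7 were ATG, 5 GTG, 3 CTG and 2 TTG.

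The ORF over the main start of Ndufaf5 could be read as well, since its own leader has 38 bases. It is shown for its ATG, in capitals, which follows an A 3 bases before and precedes a C.

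Ndufaf5, chr2:140170672-140170695 (+): ctaatagaaaccATGccctgctgt

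An earlier ATG lies 20 bases after the gene start, and no ORF was listed from it.

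The run AAGATGGCG was then searched in the whole windows of 300 bases, on both strands, after it had been seen at these starts. It resembles an element that is known from genes with very short leaders. It was found in 9 of 78 member windows (11.5%, interval 5.41 to 20.8), which belong to 73 genes, against 3.3% of the 10517 windows of all listed families and 1.4% of all 32851 windows. The 9 windows include those of Ndufa9, Ndufc1 and Ndufs6, where the run was first seen, so this share is not independent of those starts. Atp5sl was counted with 2 windows, and whether their matches are the same site was not checked. The interval treats windows as separate, although some belong to the same gene. In all 9 windows the matches were in the sense orientation, as were those of 321 of all windows, with 143 in antisense. In 7 of the 8 genes a match began 22 to 35 bases after the gene start: Atp5j2, Atp5sl, Ndufa9, Ndufc1, Ndufs4, Ndufs6 and Ndufs7. In Atp5j2, Atp5sl, Ndufs4 and Ndufs7 the listed leaders are longer than this distance, with 77, 47, 501 and 239 bases, and whether the match holds the listed start codon was not checked there.

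Further motifs known from promoters of respiratory chain genes were searched in the same windows. The core motif of nuclear respiratory factor 1 (NRF1), which is GCGCA, any base and GCGC, with no overlap with the run above, was found in 20 of 78 member windows (25.6%, interval 16.4 to 36.8), against 10.6% of the windows of listed families and 4.6% of all windows. These belong to 19 genes. The core CCGGAAG of ETS factors, the family of GABPA (nuclear respiratory factor 2), was found in 17 of 78 (21.8%, interval 13.2 to 32.6), against 18.9% and 8.86%. A match is a description of letters in the window and says nothing of binding.

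Many member genes also lay back to back with another listed gene. A divergent neighbour, on the other strand with its transcript start within 1000 bases, was found for 23 of 85 families (27.1%, interval 18 to 37.8), against 13% of all families. In some pairs the neighbour is itself mitochondrial: Ndufs6 lies 6 bases from Mrpl36 and Ndufb5 215 bases from Mrpl47, both mitochondrial ribosomal proteins, and Sdhd 51 bases from Timm8b, an import factor. Atp5j overlaps by 502 bases with Gabpa, the gene of the DNA-binding subunit of nuclear respiratory factor 2. Ndufs1 overlaps by 565 bases with Eef1b2, a translation elongation factor subunit, and Atp5c1 by 138 bases with Kin.

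Other genes of the pathway that the name rule does not take were set beside the members. Of 38 assembly factors outside the rule, 35 were listed (Timmdc1, Lyrm7 and Sco2 were not), with a median score of 948 and a median of 253 codons. More than 1 ORF was listed for 22 of the 35 and another in-frame start for 13, against 20 and 10 of the 85 members and 56.4% and 23% of all families. Upstream ORFs were listed for 2 of them: Cox10, which farnesylates haem for complex IV, had an upstream ORF of 65 codons (score 604, main score 586), and Atpaf2 1 of 4 codons (score 634, main score 828). Atpaf1, a chaperone of the ATP synthase head, had a main ORF of 348 codons (score 591) and in-frame starts that leave 324 (score 890), 277 (score 576), 177 (score 817) and 62 codons (score 765). In Cox17, a copper chaperone, the shorter ORF scored higher, with 991 for 63 codons and 543 for 69.

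Of 14 other parts of the chain and its carriers all were listed, with a median score of 962. Upstream ORFs were listed for 2 of them. Ucp2, an inner membrane carrier of the uncoupling protein family, had a 36-codon upstream ORF (score 987) beside the main ORF of 309 codons (score 953). Gpd2, which feeds electrons from glycerol phosphate to ubiquinone, had 1 of 28 codons (score 884) that lies before a 105-codon ORF in a second set of ORFs under its name and not before the 727-codon ORF. Atpif1, the inhibitor of the ATP synthase, was the only one of the 14 with another in-frame start.

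The members were set beside 3 other groups of genes for large complexes, whose main ORFs had medians of 151.5 codons (cytosolic ribosomal proteins), 200.5 (mitochondrial ribosomal proteins) and 264 (proteasome), against 146. Of 80 cytosolic ribosomal protein families 23.8% had more than 1 ORF and 1 (1.25%) had an upstream ORF. For 74 mitochondrial ribosomal protein families the values were 40.5% and 10 (13.5%), and for 46 proteasome families 28.3% and 0 (interval up to 7.71%). Another in-frame start was listed in 6.25, 18.9 and 13% of these groups, in this order, against 11.8% of the members. Splice variants with the main start and stop were listed in 3.75, 8.11 and 10.9%, against 5.88%. The medians of the main score were 987, 958 and 971, against 969 in the members. Leaders had medians of 99.5, 81 and 108.5 bases, against 99. The 95% interval of the members' share of families with more than 1 ORF, 15 to 34, overlapped those of the cytosolic ribosomal proteins (14.9 to 34.6), the mitochondrial ribosomal proteins (29.3 to 52.6) and the proteasome (16 to 43.5), and no difference between these groups was tested.

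**Figure D5:**
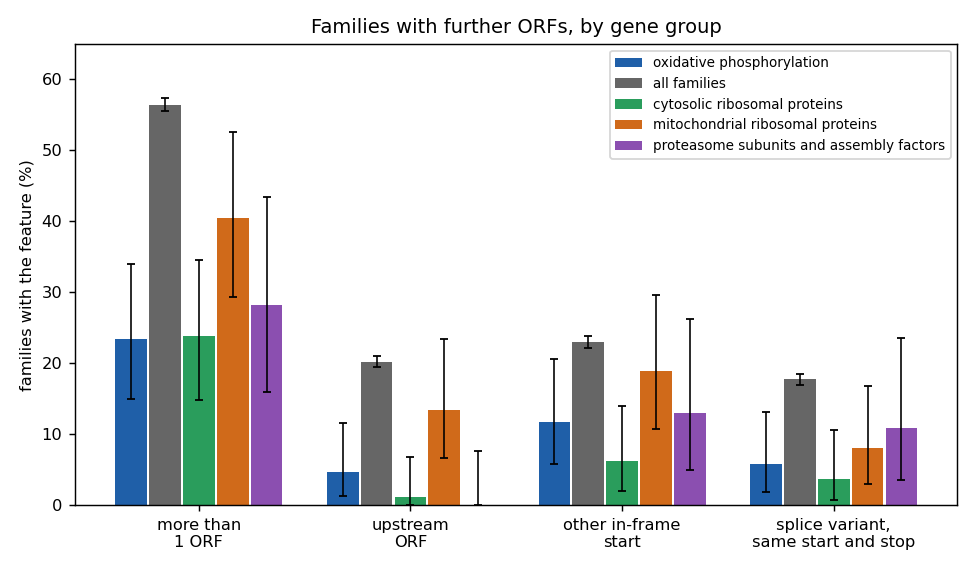
Share of families (%) with more than 1 ORF, an upstream ORF, another in-frame start and a splice variant, for the oxidative phosphorylation families, all families and 3 other gene groups, with exact 95% Clopper-Pearson intervals as bars. The members lie at 23.5, 4.71, 11.8 and 5.88%, below all families at 56.4, 20.2, 23 and 17.8%.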

How the data were processed

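Footprints of all libraries were reduced by the authors to 1 deposited list of ORFs in BED format, with exon blocks, the ORF span and a score per ORF. The submitters' processing notes name TopHat, Bowtie2 and mm9. For their roles and versions, the ORF caller and what the score measures: not given in the sources used here. Scores were used as deposited by the authors, with no test.

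Families were split by chromosome and strand, and the longest ORF of each was the main ORF (ties by score). Other ORFs were classed by position and frame in the transcript. The length in the name equalled the coding bases in 22367 of 22367 ORFs, and the classes were tested on simulated ORFs. All 85 member names matched a RefSeq symbol (GRCm38.p6), 3 of them by an older name, and 73 had a promoter window. A length check against RefSeq proteins was not run.

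Members and lists were chosen with earlier results of these data known. Values in full were given for families with more than 1 ORF and for the highest and lowest scores of each complex, by a fixed rule; others were named for their role, leader or start sequence. Shares have exact Clopper-Pearson 95% intervals (Python 3.11.15, scipy 1.17.1). Whether libraries of a group came from separate animals is not stated in the labels used here.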

Additional observations from a re-analysis of the deposited data

How the results depend on the processing

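With ORFs scoring at least 900 only, 78 of the 85 families were left, the count with an upstream ORF moved from 4 to 0, with another in-frame start from 10 to 0 and with more than 1 ORF from 20 to 5. When the main ORF was the one with the highest score, 0 families had an upstream ORF, since each such ORF becomes the main one. With 1 ORF per stop codon, 0 had another in-frame start, by construction, and 6 had more than 1 ORF. Among subunits only, 2 had an upstream ORF, both of them before a longest ORF whose gene was not tested. All families moved too: at a score of at least 900, 5.76% had an upstream ORF and 0.428% another in-frame start. The share of all families with more than 1 ORF was not taken under these settings. The counts of 5 and 6 therefore cannot be set beside the whole list. The median main score (969 to 975) and leader (91 to 100 bases) moved little under the alternatives run, and a minimum of 30 codons left each count within 1.5 times. Taking the ORF of RefSeq protein length as the main ORF was not run, for want of a protein table here. No paired analysis was possible because the list holds no value per library, so no replicate could be left out either. Depth behind each ORF is unknown.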
